A study of Rattus norvegicus with 12 samples.

Results

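The adrenergic receptors are the cell surface receptors through which noradrenaline and adrenaline act, and 7 of their genes were described here: Adra1a, Adra1b, Adra1d, Adra2a, Adra2b, Adra2c and Adrb1. Every probe set of the Affymetrix rat expression array (chip type Rat230_2) that the platform annotation assigns to one of these symbols was taken, which gave 10 of 31042 probe sets and 7 of 14217 named genes. A probe set is a group of short probes that together report 1 transcript. Tissue was dissected from 2 brain structures, the nucleus accumbens in the ventral striatum and the anterior cingulate, a frontal cortical area. The animals were male Wistar rats that had taken cocaine by self-administration (0.3 mg/kg in each 40 µl injection, 4 daily sessions of 2 h) and that died 2 h after the last session. Both treatment groups had therefore taken cocaine, and the 4 groups were cingulate cortex with vehicle, cingulate cortex with TsA, accumbens with vehicle and accumbens with TsA. The labels write TsA without spelling it out; the letters usually stand for the histone deacetylase inhibitor trichostatin A. Each group held 3 arrays and each array carried RNA pooled from 2 rats, so a value is that of pooled tissue and not of a cell type. The labels do not say that the pools of a group held different rats, so p-values measure only the spread between these samples, which may be technical.

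Noradrenaline reaches the cortex from the locus coeruleus of the brainstem, while the accumbens, above all its shell, also receives it from other brainstem cell groups. The α1 receptors (Adra1a, Adra1b, Adra1d) couple to Gq/11 proteins and phospholipase C. The α2 receptors (Adra2a, Adra2b, Adra2c) couple to Gi/o proteins, lower cyclic AMP, and include the autoreceptors by which noradrenergic terminals limit their own release. The β1 receptor (Adrb1) couples to Gs and raises cyclic AMP.

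Of the 7 genes, 6 had an entry among RefSeq's promoter windows (250 bases before to 50 after an annotated start, build GRCr8), all but Adra1a. The windows of 4 of them are printed because these genes include the largest differences between the structures, in both directions, and because Adra2a and Adra2c differ in opposite ways; they read 5′ to 3′ on the gene's strand, and capitals mark a GC box (GGGCGG on either strand), the site of Sp-family factors. The window of Adra1d is chr3:139262282-139262581 (minus strand), that of Adra1b chr10:28814298-28814597 (minus strand, inside the annotated span of the gene, hence 1 of its possible starts), that of Adra2a chr1:263066530-263066829 (plus strand) and that of Adra2c chr14:79697427-79697726 (minus strand).
Adra1d: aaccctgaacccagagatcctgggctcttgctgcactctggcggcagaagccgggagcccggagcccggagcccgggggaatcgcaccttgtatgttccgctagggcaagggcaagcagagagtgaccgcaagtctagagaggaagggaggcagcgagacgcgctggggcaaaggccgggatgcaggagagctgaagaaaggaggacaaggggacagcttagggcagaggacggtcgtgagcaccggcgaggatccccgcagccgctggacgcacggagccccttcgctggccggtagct
Adra1b: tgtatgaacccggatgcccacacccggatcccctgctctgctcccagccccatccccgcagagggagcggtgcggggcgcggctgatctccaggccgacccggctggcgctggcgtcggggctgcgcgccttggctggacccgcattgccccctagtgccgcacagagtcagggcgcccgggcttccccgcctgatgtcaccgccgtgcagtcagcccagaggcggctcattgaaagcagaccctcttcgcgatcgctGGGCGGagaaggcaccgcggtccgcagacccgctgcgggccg
Adra2a: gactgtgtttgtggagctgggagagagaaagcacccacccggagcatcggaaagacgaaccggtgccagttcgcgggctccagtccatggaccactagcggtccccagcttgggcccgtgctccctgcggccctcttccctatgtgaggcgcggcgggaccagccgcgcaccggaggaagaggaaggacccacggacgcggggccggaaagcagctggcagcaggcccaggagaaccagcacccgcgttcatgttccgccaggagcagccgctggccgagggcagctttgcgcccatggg
Adra2c: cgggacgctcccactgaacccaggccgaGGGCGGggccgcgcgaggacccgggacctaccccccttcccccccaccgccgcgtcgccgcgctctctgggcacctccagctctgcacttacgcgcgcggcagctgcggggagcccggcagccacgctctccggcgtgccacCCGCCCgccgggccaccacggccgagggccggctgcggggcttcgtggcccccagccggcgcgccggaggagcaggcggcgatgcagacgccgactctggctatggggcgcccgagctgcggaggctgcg
The window of Adra2c had the highest share of G and C of the 6, 79%, which was above 98.8% of the 27457 promoter windows of the table, and held 43 CpG dinucleotides where the median window held 7. The shares were 65.7% for Adra1d, 72% for Adra1b and 68% for Adra2a. GC boxes numbered 2 in Adra2c, 2 in Adra2b and 1 in Adra1b, with none in Adra1d, Adra2a and Adrb1, and 34.9% of all windows held at least 1. A half-site of the cyclic AMP response element (TGACG, either strand) was found in the window of Adrb1 and in none of the other 5, against 22% of all windows, and a TATA box (TATAAA, either strand) in none of the 6, against 14.3%. In Adra2a the bases from the annotated start on open with ATG, the codon that begins a protein. That start may be where the coding sequence begins, so its window may not cover the promoter. These matches are descriptions of the letters only.

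Values are the deposited signal, a linear brightness in arbitrary units that had been scaled array by array, so levels are compared between groups for 1 probe set and never between probe sets. Fold changes were computed on log2(signal + 16), which understates those of dim probe sets. Probe sets whose mean over the 12 arrays was under 17.4 were left out of the model. The filter kept 5 of the 10 probe sets, 1 each for Adra1b, Adra1d, Adra2a, Adra2c and Adrb1; the only probe set of Adra1a, the other one of Adra2a and all 3 of Adra2b fell under it. Array medians lay between 26.8 and 33.1. By the fluidics station and time in the run records, arrays had been washed and stained in 3 batches of 4 that largely coincide with groups: batch 1 held the 3 cingulate vehicle arrays and 1 cingulate TsA array, batch 2 the other 2 cingulate TsA arrays with 2 accumbens vehicle arrays, and batch 3 all 3 accumbens TsA arrays plus the remaining accumbens vehicle array, number 3. Marker levels went with the tissue labels. All 5 measured markers of cortical glutamatergic neurons were lower and all 7 of striatal medium spiny neurons higher in the accumbens. Examples are Fezf2 (163 ± 22.1 against 25.4 ± 2.98, SD, n = 6 arrays) and the dopamine receptor gene Drd1 (104 ± 12.4 against 1167 ± 103). Among all probe sets in the model, 20.4% were called lower there and 24.4% higher (adjusted p under 0.05). The cortical marker Tbr1 had an accumbens mean of 14.7, so it passed the filter through the cortex alone.

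The comparison of the structures asks where each receptor gene is expressed more. The α1 genes Adra1d and Adra1b were far higher in the cingulate cortex, Adra2a was moderately higher there, and Adra2c went the other way and was 2.25-fold higher in the accumbens on the scale of signal + 16. Adrb1 differed least. All 5 probe sets in the model passed the threshold of 0.05 on the adjusted p, 4 lower and 1 higher in the accumbens, where 44.8% of the 18625 probe sets tested passed, 20.4% lower and 24.4% higher. The arrays of the structures did not overlap for 3 of the 5, Adra1d and Adra1b lower and Adra2c higher in the accumbens, as was so for 27.1% of all probe sets tested (12.7% lower, 14.4% higher). Adra1d passed the filter through its cortical signal alone, so these counts are given as a description.

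Adra1d (probe set 1368534_at) had a signal of 196, 226 and 213 in the cingulate vehicle arrays, 188, 206 and 214 with TsA, 10.4, 1.53 and 10.2 in the accumbens vehicle arrays, and 11.6, 2.02 and 6.65 with TsA. The structures did not overlap, and every accumbens value lay below the filter limit. The mean was 207 ± 13.8 (SD, n = 6) in the cingulate cortex and 7.07 ± 4.43 in the accumbens, and the fitted difference was -3.29 on the log2 scale. An accumbens level above background was not shown, so the size describes these signals with the constant added and is no measured fold: it was -4.37 with a constant of 4 and -1.93 with 64. Among all tested probe sets, 2.78% were lower in the accumbens by at least 1 on the log2 scale.

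Adra1b (1368574_at), the other α1 gene in the model, gave 167, 184 and 139 in the cingulate vehicle arrays, 129, 168 and 121 with TsA, 25.1, 21.0 and 26.3 in the accumbens vehicle arrays, and 22.3, 11.004 and 28.6 with TsA. Again no accumbens array reached the lowest cortical one. Means were 151 ± 25.2 and 22.4 ± 6.20, a log2 difference of -2.13 ± 0.12 (limma adjusted p = 2.04e-08), which was -1.31 with an added constant of 64. Adra1a (1369797_at) had signals of at most 5.81 on any array (3.47 ± 1.77 in the cingulate cortex, 1.98 ± 1.32 in the accumbens). Its groups overlapped, and an exact permutation test of 6 against 6 arrays, one of 5 run on the probe sets under the filter, gave p = 0.126 for a log2 difference of -0.11 (p = 0.0281 with arrays centred on their medians). No level of Adra1a can be read from this probe set beyond that it was dim on every array.

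**Figure D1:**
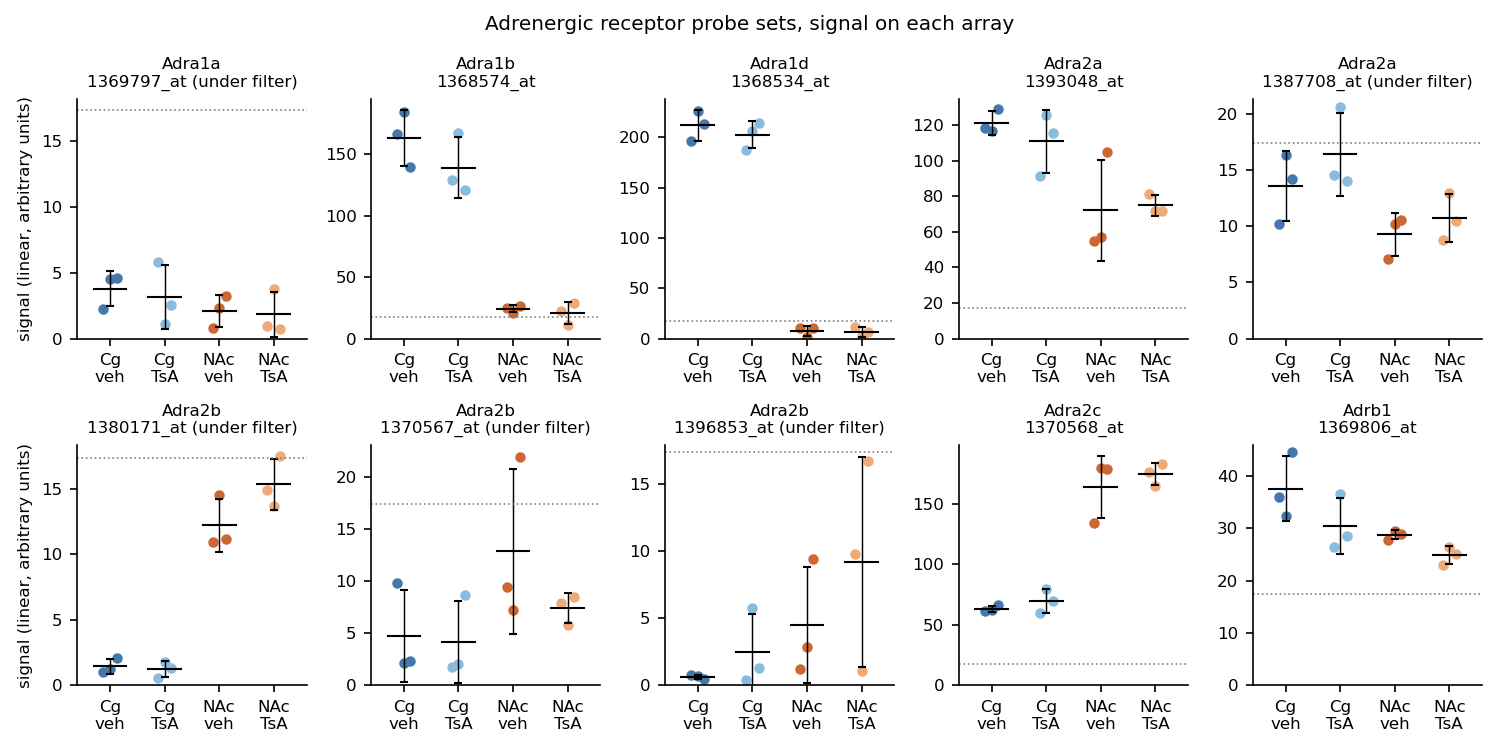
Signal of each of the 10 adrenergic receptor probe sets (vertical axis, linear arbitrary units) on the 12 arrays, by group: Cg is cingulate cortex, NAc nucleus accumbens, veh vehicle. Points are arrays, the long bar is the mean, whiskers are the SD (n = 3, drawn no lower than 0), and the dotted line is the filter limit of 17.4. Adra1d and Adra1b stand high in the cortex only, and Adra2c stands higher in the accumbens. Within a structure vehicle and TsA arrays overlap, except for Adrb1 in the accumbens.

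Of the α2 genes, Adra2a and Adra2c differed between the structures in opposite directions. For Adra2a, the main autoreceptor gene and also a postsynaptic receptor of cortical neurons, the brighter probe set (1393048_at) read 118, 117 and 129 in cingulate vehicle, 91.3, 126 and 115 in cingulate TsA, 54.6, 56.9 and 105 in accumbens vehicle and 81.5, 71.4 and 71.6 in accumbens TsA. The structures overlapped through 1 array, accumbens vehicle array 3, which read above the lowest cortical array and far above the other accumbens vehicle arrays. That array was washed in batch 3, the others in batch 2. Means were 116 ± 13.2 and 73.4 ± 18.3 (n = 6), a log2 difference of -0.58 ± 0.13 (limma adjusted p = 0.00208). Blocking on wash batch gave -1.31, and batch 2 alone, cingulate TsA against accumbens vehicle, gave -0.93 (limma adjusted p = 0.000158 and 0.00311), and without accumbens vehicle array 3 it was -0.70. The dimmer probe set of Adra2a (1387708_at), under the filter, had the same sign at a smaller size, 15.0 ± 3.44 against 9.999 ± 1.98 (log2 difference -0.25, exact permutation p = 0.0108).

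Adra2c (1370568_at), an α2 gene known in rodents for its striatal expression, read 61.5, 62.3 and 66.2 in cingulate vehicle, 59.4, 79.3 and 69.7 in cingulate TsA, 134, 180 and 179 in accumbens vehicle and 176, 165 and 183 in accumbens TsA. The lowest accumbens array lay above the highest cortical one. Means were 66.4 ± 7.31 and 169 ± 18.2 (n = 6), a log2 difference of 1.17 ± 0.09 (limma adjusted p = 1.82e-07), which was 0.87 when wash batch was a block and 0.92 within batch 2. A difference of at least 1 in this direction was found for 3.39% of all tested probe sets.

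Adra2b was dim at all 3 of its probe sets. At probe set 1380171_at the cortical arrays read 0.555 to 2.09 and the accumbens arrays 10.9 to 17.5, with no overlap (log2 difference 0.78, exact permutation p = 0.00216, the smallest that 6 against 6 arrays allow). Of the probe sets past the filter, 27.1% did not overlap between the structures. A model fitted without the filter put 1380171_at at 0.78 ± 0.06 (limma adjusted p = 3.80e-07). In that model 31% of all 31042 probe sets passed. The difference was 1.74 with an added constant of 4 and 0.25 with 64. The 2 others (1370567_at and 1396853_at) overlapped between the structures, with log2 differences of 0.35 and 0.34 (exact permutation p = 0.0433 and 0.0671), and neither passed in the model without the filter (limma adjusted p = 0.070 and 0.0885). The exact permutation p of the first of these was 0.0887 when arrays were quantile normalized, 0.132 when they were centred on their medians, and above the threshold on leaving out any of 6 single arrays. All accumbens readings of the 3 probe sets but 2 (21.9 at one and 17.5 at another) lay under the filter limit. The shared sign is therefore a description of dim signal, and these values give no expression level.

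Adrb1 (1369806_at), the β1 receptor gene, read 35.9, 32.4 and 44.6 in cingulate vehicle, 26.5, 36.6 and 28.6 in cingulate TsA, 27.8, 29.5 and 29.0 in accumbens vehicle and 23.0, 26.5 and 25.2 in accumbens TsA. The structures overlapped. Means were 34.1 ± 6.50 and 26.8 ± 2.46, a log2 difference of -0.22 ± 0.08 (limma adjusted p = 0.0427), which was -0.11 with an added constant of 64. This call is the least secure of the 5: it ended without the filter (adjusted p = 0.0694), when wash batch was a block (-0.35, adjusted p = 0.193), within batch 2 (-0.12, adjusted p = 0.640), and on leaving out any of 10 single arrays, all but cingulate vehicle 2 and cingulate TsA 1 (limma adjusted p from 0.0286 to 0.108 over the 12 left out in turn). Adrb3, a β receptor gene outside the 7, was dim throughout (5.22 to 18.3).

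**Figure D2:**
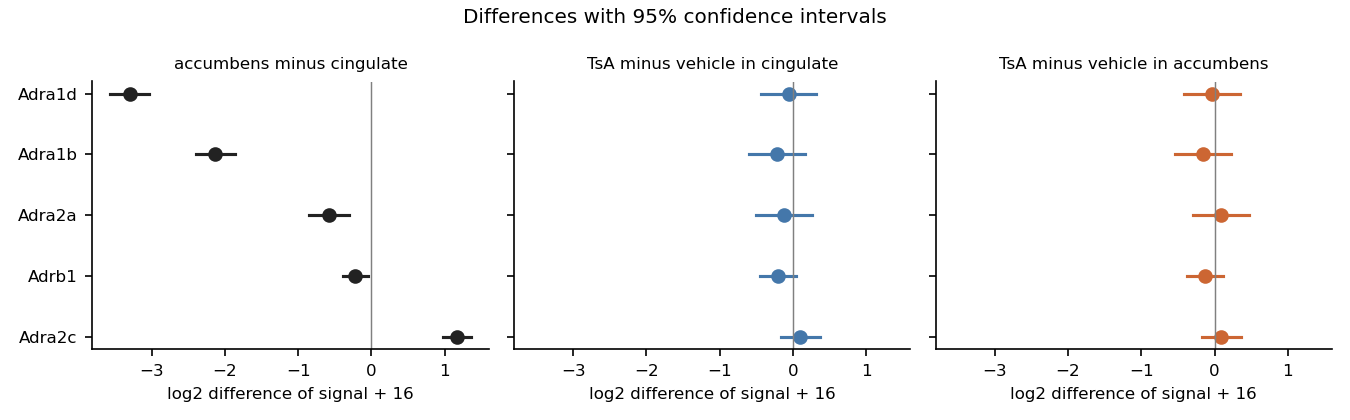
Log2 differences of signal + 16 for the 5 probe sets in the model (points) with 95% confidence intervals of the limma fit (lines), for accumbens minus cingulate (left) and TsA minus vehicle in each structure (middle and right), on one scale. The structure differences run from -3.29 for Adra1d to 1.17 for Adra2c, and all 10 intervals of the TsA comparisons include 0.

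The structure differences lay close together in the vehicle arrays and the TsA arrays. For Adra1d they were -3.31 with vehicle and -3.28 with TsA, for Adra1b -2.16 and -2.10, for Adra2a -0.68 and -0.47, and for Adra2c 1.17 and 1.16. Within each treatment the accumbens arrays of Adra2a all read below the cortical ones, a separation in this direction that 20.1% of all probe sets showed with vehicle and 21.2% with TsA. The limma adjusted p for Adra2a was 0.00926 with vehicle, where 34.5% of probe sets passed, and 0.0648 with TsA, where 28.3% passed. The test of the change itself, the TsA effect in the accumbens minus that in the cortex, gave 0.21 (95% interval -0.33 to 0.76, limma adjusted p = 0.848). For Adrb1 the differences were -0.25 and -0.18, and neither passed. Ordered by mean signal, Adra1d, Adra1b and Adrb1 ran from cingulate vehicle through cingulate TsA and accumbens vehicle to accumbens TsA, and Adra2c in reverse. In Adra2a the accumbens groups changed places. Within a structure the arrays of neighbouring groups in these orders overlapped, except for Adrb1 in the accumbens, and those of cingulate TsA and accumbens vehicle overlapped for Adra2a and Adrb1.

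The comparison of TsA with vehicle asks whether the treatment changed the receptor genes in rats that took cocaine. No adrenergic receptor probe set passed, and limma called 0 of the 18625 probe sets (0%) in each of the 4 comparisons: either structure, their average, and the change between them. At an unadjusted p under 0.05 the counts over all probe sets were 851 (cingulate cortex), 408 (accumbens), 515 (average) and 662 (change between structures), and none of the 5 receptor probe sets was among them. In the cingulate cortex the log2 differences were -0.06 for Adra1d (95% interval -0.43 to 0.32), -0.22 for Adra1b (-0.59 to 0.16), -0.12 for Adra2a (-0.51 to 0.26), 0.10 for Adra2c (-0.16 to 0.37) and -0.20 for Adrb1 (-0.45 to 0.04). In the accumbens they were -0.04 for Adra1d (-0.41 to 0.34), -0.16 for Adra1b (-0.54 to 0.22), 0.09 for Adra2a (-0.30 to 0.47), 0.09 for Adra2c (-0.17 to 0.36) and -0.13 for Adrb1 (-0.38 to 0.12). All these intervals include 0, and with 3 pools a group changes as large as their ends are not excluded.

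Adrb1 came nearest to a treatment difference. All 3 accumbens TsA arrays (23.0 to 26.5) read below all 3 vehicle arrays (27.8 to 29.5), a separation seen in this direction for 2.46% of all tested probe sets and in either direction for 5.48%. In the cingulate cortex means were 30.5 ± 5.35 with TsA and 37.6 ± 6.24 with vehicle, and the arrays overlapped, as they did there for the other 4; 12.4% of all probe sets did not overlap in the cingulate cortex. The average over the structures was -0.17 ± 0.08 (limma unadjusted p = 0.0586, adjusted p = 1.00). Under 1 alternative, limma's array weights, whose estimation did not converge, Adrb1 was called in the cingulate cortex (-0.41, adjusted p = 0.00777), where 24.3% of all probe sets were then called. Some marker sums also did not overlap between TsA and vehicle: those of 5 markers of septum and neighbouring regions were 343 to 443 with vehicle and 449 to 533 with TsA in the accumbens and 70.8 to 73.4 and 59.2 to 66.6 in the cingulate cortex, where 6 microglial markers summed to 886 to 1053 and 734 to 874. The sums of every other marker list overlapped in both structures, and those of the septum list moved in opposite directions. Single probe sets did not overlap for 5.48% of all tested in the accumbens and 12.4% in the cingulate cortex. The part of these cell markers in the Adrb1 values was not tested. The remaining receptor probe sets overlapped between TsA and vehicle in both structures, the 5 under the filter included, and in the limma model without the filter the adjusted p of those 5 were 0.870 to 0.985 in the cingulate cortex and 1.00 in the accumbens. Treatment and wash batch were nearly the same split in the accumbens: within batch 3, which sets 1 vehicle array against the 3 TsA arrays, Adra2a stood at -0.41 (adjusted p = 0.293), the opposite sign of the 0.09 above. In the cingulate cortex, batch 1 sets the 3 vehicle arrays against 1 TsA array, and there Adra2c stood at -0.074 where it was 0.10 over all arrays, and Adra2a at -0.35 where it was -0.12 (adjusted p = 0.953 and 0.934, limma). Treatment and wash batch therefore largely cannot be told apart in either structure.

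Genes with patterns most like the receptors over the 12 arrays followed the structures. Pearson's r of log2 values was highest with Rprm (0.997), Rasgef1c (0.995) and Ephb6 (0.993) for Adra1b, with Dkk3 (0.997), Slc30a3 (0.996) and Zbtb18 (0.996) for Adra1d, and with Kdm5b (0.995), Rrp1b (0.992) and Ptprv (0.989) for Adra2c. For Adra2a they were Ppfia3 (0.982), Rab11fip4 (0.960) and Plch2 (0.955), and for Adrb1 only 0.906 with Wdr13, 0.885 with Minar2 and 0.870 with Mnt. These are the 3 highest of 10377 genes for each receptor, and since all arrays fall into 2 structures the r mostly restates the structure difference. On deviations from the group means the r of these 15 pairs ranged from 0.606 (Adrb1 and Mnt) to 0.965 (Adra2c and Kdm5b), and the top pairs of Adra1b, Adra2a, Adra1d and Adrb1 had 0.953, 0.953, 0.760 and 0.711. The pairs were picked by an r that already contains these deviations. High values here thus follow at least in part from the choice and show no likeness beyond it. Among the receptors themselves the deviations gave r from -0.198 (Adra1d and Adrb1) to 0.625 (Adra2a and Adra2c). Adra1b and Adra1d had 0.525, and pairs of different receptor types reached 0.520 (Adrb1 and Adra2c) and 0.442 (Adra1d and Adra2a). The arrays share hybridisation and scaling, so these r are descriptions of 12 arrays.

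The rest of the noradrenergic pathway was followed with a list of 90 genes, of which 79 had a probe set annotated to that gene alone and 68 were in the model. Between the structures 24 were lower and 19 higher in the accumbens (63.2%, against 44.8% of all probe sets), with a median log2 difference of -0.11 against 0.04 for all. The list took the brightest probe set of each gene, while the share over all covers every probe set kept. Some listed genes also passed the filter through the cortex alone, so the 2 shares are unlike and are given as a description. Genes of noradrenergic neurons were dim in both structures: Dbh, the enzyme that makes noradrenaline from dopamine, read 6.96 ± 2.13 in the cingulate cortex and 4.50 ± 2.05 in the accumbens, the noradrenaline transporter gene Slc6a2 2.51 ± 2.74 and 1.97 ± 0.919, and Phox2a, a transcription factor gene of these neurons, 10.6 ± 1.83 and 8.80 ± 1.47. Th, the rate-limiting enzyme of catecholamine synthesis, read 17.998 ± 6.15 and 11.7 ± 2.55, and the vesicular transporter gene Slc18a2 10.2 ± 1.60 and 11.3 ± 4.97. The noradrenergic and dopaminergic cell bodies lie in the brainstem, outside both dissections. Of the degrading enzymes, Maob was lower in the accumbens (-0.27 ± 0.08, limma adjusted p = 0.0119), and Maoa read 356 ± 70.5 and 353 ± 18.4 (0.0076, limma adjusted p = 0.963). The low-affinity carrier gene Slc22a3 was lower (-0.42), and Ddc (0.49) and Qdpr (0.78), which serve monoamine synthesis, were higher.

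**Figure D3:**
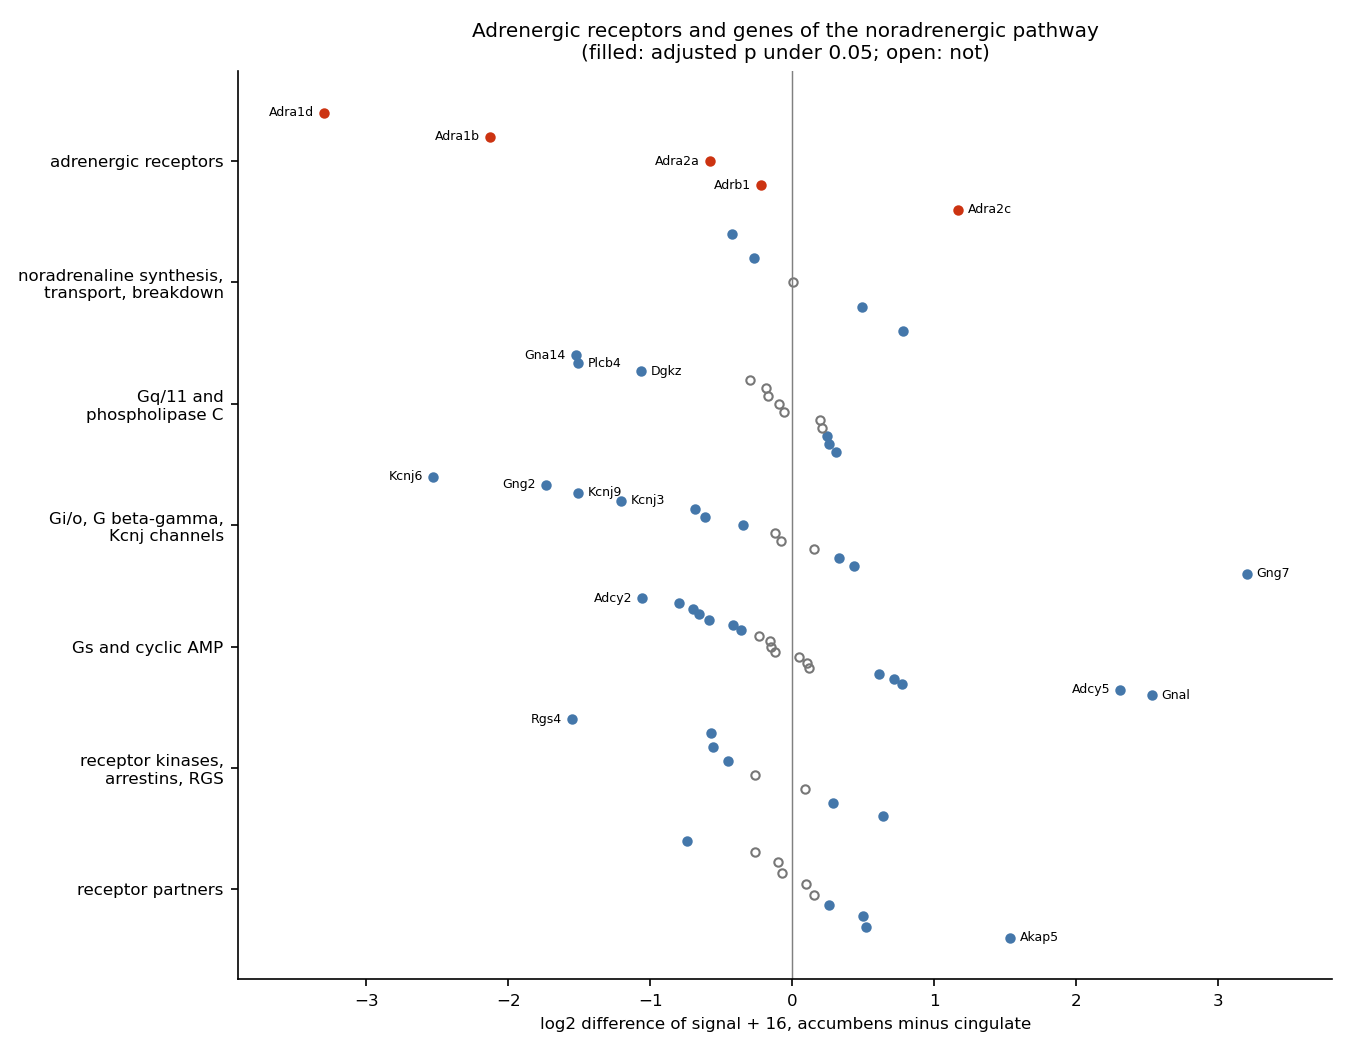
Log2 difference of signal + 16, accumbens minus cingulate (horizontal axis), for the 5 receptor genes (red) and 68 genes of the noradrenergic pathway list (blue or open) by role, 1 probe set a gene. Filled points passed the threshold in the limma fit and open ones did not; genes with a difference above 1 in size and all receptors are named. Below -1 lie Kcnj6, Gng2, Rgs4, Gna14, Plcb4, Kcnj9, Kcnj3, Dgkz and Adcy2, with Kcnj6 the lowest of the list, while Gng7, Gnal and Adcy5 stand highest.

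On the Gq/11 side, to which α1 receptors couple, 3 of 13 genes were lower in the accumbens, 3 were higher and 7 did not pass (46.2% called, near the 44.8% of all probe sets). Lower were Gna14, a Gq-family α subunit (65.5 ± 17.4 against 11.8 ± 1.84, -1.53), the phospholipase gene Plcb4 (-1.51) and the diacylglycerol kinase gene Dgkz (-1.07). As with Adra1d, the accumbens means of Gna14 (11.8), Kcnj9 (13.7) and Slc22a3 (15.6) lay under the filter limit, so they passed through the cortex alone and their sizes depend on the added constant. Higher, by less, were Prkcd (0.31), Itpr1 (0.26) and Itpr2 (0.24), and the main α subunit genes read 77.4 ± 13.0 against 66.5 ± 15.6 for Gnaq (-0.19, adjusted p = 0.267) and 65.0 ± 4.00 against 61.7 ± 5.57 for Gna11 (-0.06, adjusted p = 0.5003, limma). On the Gi/o side, to which α2 receptors couple, 7 of 13 were lower and 3 higher (76.9% called). The 3 listed genes of Kcnj channels, which Gβγ opens, were lower in the accumbens: Kcnj6 (310 ± 31.9 against 42.4 ± 17.4, -2.53), Kcnj9 (-1.51) and Kcnj3 (-1.21). The γ subunit gene Gng2 was also lower (-1.74), while Gng7, the γ subunit of striatal neurons, was higher (107 ± 20.4 against 1105 ± 70.7, 3.20).

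On the Gs and cyclic AMP side, to which the β1 receptor couples, 7 of 19 were lower and 5 higher. That is 63.2% called, against 44.8% of all probe sets. Gnal, the striatal α subunit that takes the place of Gs, was higher in the accumbens (91.4 ± 15.3 against 604 ± 78.1, 2.53) and so was the adenylyl cyclase gene Adcy5 (101 ± 11.1 against 565 ± 80.1, 2.31), with smaller differences for the phosphodiesterase gene Pde4b (0.72) and the kinase subunit gene Prkar2b (0.77), while Gnas itself was lower (-0.42), as were Adcy2 (-1.06), Adcy8 (-0.70) and Adcy6 (-0.58). Of the genes that turn receptors off, 4 of 8 were lower and 2 higher (75% called). Lower were Rgs4 (-1.55), the receptor kinase genes Grk2 (-0.57) and Grk6 (-0.45) and the arrestin gene Arrb2 (-0.56), and higher were Rgs2 (0.64) and Rgs14 (0.28). Of 10 genes of proteins that bind these receptors, 4 were higher, led by the kinase anchor gene Akap5 (1.54), and Akap12 was lower (-0.74); the 50% called is near that of all probe sets. With TsA 0 of the 68 genes passed in any of the treatment comparisons, with 32 above 0 and 36 below in the cingulate cortex and 39 above and 29 below in the accumbens.

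Markers of several cell types moved with the structures beside the receptors. The summed signal of 5 markers of cortical glutamatergic neurons ranged from 1916 to 2328 in the cortical arrays and from 166 to 557 in the accumbens, that of 5 oligodendrocyte markers from 3271 to 4361 and from 10420.5 to 12772, and that of 7 markers of meninges and fibroblasts from 378 to 835 and from 187 to 255. The 7 astrocyte markers summed to between 10459.9 and 11521 and to between 10106 and 11073, with 1 higher and 3 lower. All 5 markers of oligodendrocyte precursors were higher. Over all probe sets tested, 24.4% were called higher and 20.4% lower. Other lists moved less or were mixed. Of 6 microglial, 5 endothelial and 6 mural cell markers, 0 were called. Of 4 interneuron markers, 1 was higher and 2 were lower. The 5 markers of septum and neighbouring regions summed to 59.2 to 73.4 and to 343 to 533 but did not move as one. Of the 4 in the model 3 were higher, among them Nts (3.32 ± 1.83 against 264 ± 65.2), and Trpc4 was lower (38.5 ± 3.46 against 18.2 ± 4.68). The cortical means of the 3 higher ones, Calcr, Nts and Ecel1, lay under the filter limit. They passed the filter through the accumbens alone, so this count is given as a description. Zic1, under the filter, read 13.4 ± 4.40 and 12.1 ± 3.32. In tissue RNA, fewer cells of a type and less RNA per cell cannot be told apart, and the part of cell makeup in the receptor differences was not tested.

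**Figure D4:**
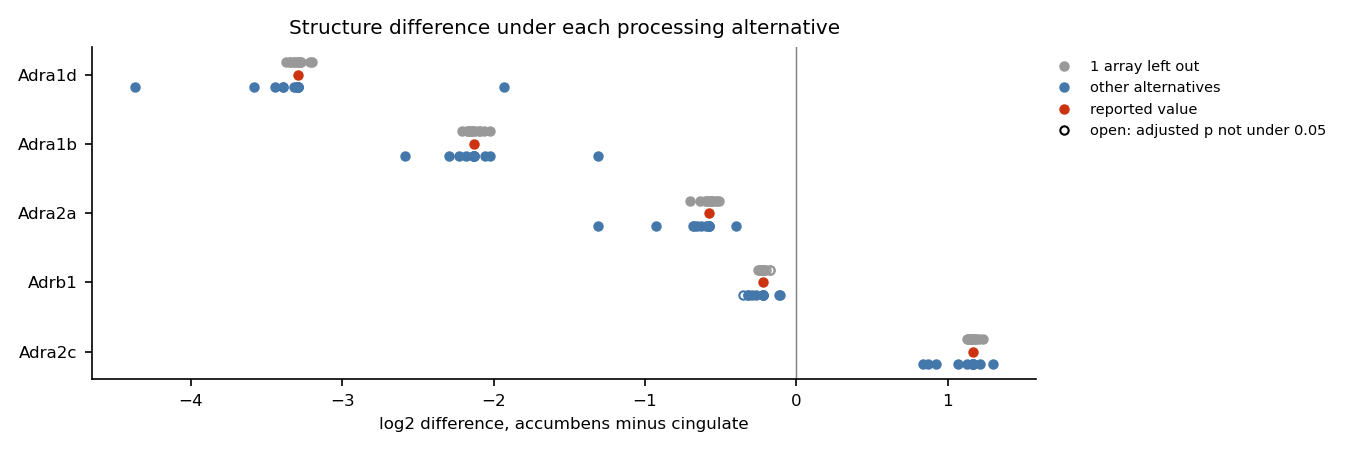
Log2 difference between accumbens and cingulate cortex (horizontal axis) for the 5 receptor probe sets under every processing alternative: grey points leave out 1 array, blue points are the other alternatives, the red point is the value reported. Open points did not pass the threshold. No point changes sign, and open points are seen for Adrb1 alone.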

How the data were processed

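Per the labels' protocols, RNA of pooled tissue was made into biotinylated cRNA (6 µg total RNA) and hybridised to 1 array per pool. Per the submitters' processing notes, images were read with GCOS 1.4 and summarised by MAS5. The values used are the authors' deposited signal intensity, linear and already scaled (2% trimmed mean 100.03 on every array); no further normalization was applied, and no detection calls were used. After 57 control probe sets were left out, the lowest 40% by mean signal were dropped and 18625 kept. A limma model with 4 group means was fitted to log2(signal + 16) of all 12 arrays with a mean-variance trend and 8 residual degrees of freedom, with Benjamini-Hochberg adjustment over all kept probe sets and two-sided tests. Probe sets under the filter were tested by exact permutation over arrays for the structures (924 splits); for TsA, where 3 arrays against 3 cannot go below 0.1, they were tested in a limma model without the filter. Whether both structures came from the same rats is not given in the sources used here.

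Symbols come from the platform annotation, checked by gene ID against RefSeq (20758 of the 20826 probe sets with 1 symbol matched; 436 had several symbols and 9780 none); 11 listed pathway symbols were not analysed here. All member probe sets are described. Named pathway genes are up to 6 each way with the smallest p over the whole list, the listed synthesis and breakdown genes, and, chosen after the values were seen, the other genes named by role. The members and lists were chosen with earlier results of these data known. The model was tested on simulated data. Alternatives are listed in the closing section. Fits used limma 3.58.1 in R 4.3.3. Tables and figures used pandas 2.3.3, scipy 1.17.1, numpy 2.4.6 and matplotlib 3.10.9 under Python 3.11.15.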

Additional observations from a re-analysis of the deposited data

How the results depend on the processing

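The structure differences of Adra1d, Adra1b, Adra2a and Adra2c kept their direction and stayed past the threshold in all 24 alternatives, and Adrb1 kept its direction but not its call. The alternatives were added constants of 4 and 64, no filter, the lowest 60% left out (which drops Adrb1), quantile normalization, centring on array medians, no trend, array weights, wash batch as a fixed or random block or as separate batches, a replicate block, and leaving out each array. Called receptor probe sets numbered 4 to 5 for the structures and 0 to 0 in the treatment comparisons on leaving out 1 array. With array weights, whose estimation did not converge, 1 probe set (Adrb1, -0.41, adjusted p = 0.00777) was called for TsA in the cingulate cortex, along with 4519 of all probe sets. Array weights also called 103 of all probe sets for the TsA average and 969 for the change between structures. Over all probe sets, 4199 passed for the structures with wash batch as a fixed block and 4231 within batch 2, against 8349, and 6 passed for TsA within batch 3, where 1 vehicle array is assumed to vary like the TsA arrays. Uncalled TsA values changed sign as follows. In the accumbens Adra1d was 0.27 and Adra2c -0.00418 with array weights, and Adra2c -0.031 and Adra2a -0.41 with wash batch as a block and within batch 3 alike. In the cingulate cortex Adra2c was -0.074 with the block and within batch 1. Leaving out 1 array gave ranges in the accumbens of -0.23 to 0.12 for Adra1d, -0.32 to 0.046 for Adra1b, -0.047 to 0.34 for Adra2a and -0.034 to 0.15 for Adra2c. Whether replicate numbers pair the arrays is not given and could not be decided with 3 arrays a group. Deviations of same-numbered arrays of different groups correlated at -0.322 to 0.663, over 0.1 in 6 of 18 pairs. With the replicate block 5 receptor probe sets passed for the structures (Adrb1 at -0.22, adjusted p = 0.0492, limma) and 0 for TsA. For Adra2b probe set 1370567_at the exact permutation p ranged from 0.0238 to 0.0974 on leaving out 1 array, for 1396853_at from 0.0346 to 0.145, and for Adra1a from 0.0498 to 0.238. Dim signal limits Adra1a, Adra2b and the accumbens values of Adra1d, and 3 pools a group limit the treatment comparisons.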
